A study of Mus musculus with 4 samples.

Results

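The integrated stress response and the unfolded protein response were examined through 38 listed genes in mouse 3T3 cells that received recombinant LTα1β2 or control treatment. The genes were matched by mouse symbol to the Ensembl identifiers of the expression table, and 38 of 38 were present among 12208 genes. They were divided by role into 11 targets of the transcription factor ATF4, 14 chaperones and folding enzymes of the endoplasmic reticulum (ER), 4 genes of ER-associated degradation, 3 stress transcription factors, 4 genes of the stress sensors with Xbp1, and 2 phosphatase subunits. RNA sequencing had been carried out on 4 groups, LTα1β2 for 24 h, control at 24 h, LTα1β2 for 48 h and control at 48 h, with 1 library in each. LTα1β2 is a lymphotoxin, a membrane-type ligand of the TNF superfamily, whose receptor signals through NF-κB. The labels call 3T3 a pre-osteoblast cell line, a name that fibroblast lines also carry, and give neither the dose nor what the control cells received.

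The integrated stress response begins when a kinase, among them PERK in the ER membrane, phosphorylates the initiation factor eIF2α. General translation then slows while ATF4 is made, and ATF4 switches on genes of amino acid synthesis and uptake. The unfolded protein response is run from the ER by PERK, IRE1α and ATF6. IRE1α splices the Xbp1 mRNA, and XBP1 and ATF6 raise the chaperones that fold secreted proteins, of which matrix-secreting osteoblast-lineage cells make large amounts. Much of this control acts on translation, splicing, cleavage and phosphorylation, none of which is measured by gene-level RNA abundance.

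Depth, as reads recovered from the deposited values, was between 11355974 and 15995777 per library. The library of LTα1β2-treated cells at 48 h stood apart. Weighted by reads, the median transcript was 3127 bases long there and 3588 to 3659 bases long in the others, and across 12157 genes its log2 fold against control declined with transcript length (Spearman's rho = -0.44, against -0.023 at 24 h; genes are not independent replicates). Results that rest on this library are therefore given beside the values at 24 h or with the length trend removed. Of 10 pre-osteoblast markers 7 were in the table, Runx2, Sp7 and Col1a1 among them, while Alpl, Ibsp and Sost were not among the listed genes. Their summed level, mostly Col1a1, was 11577 and 9652 CPM in LTα1β2-treated cells and 17083 and 15901 CPM in control cells at 24 h and 48 h. Ratios at 24 h and 48 h were 0.365 and 0.257 for Sp7, 0.393 and 0.483 for Dmp1, and 0.788 and 0.538 for Runx2. Each fell over both times (adjusted p = 1.26e-15, 4.03e-05 and 0.0102, limma), where 2.27% of all genes fell. Runx2 did not pass with prior degrees of freedom fixed at 10 (adjusted p = 0.207, limma). Spp1 went the other way, at 1430.0 CPM in treated and 1234 CPM in control cells at 24 h, and 2209.8 CPM in treated and 1525 CPM in control cells at 48 h, and Bglap was near the lower limit of the table with ratios of 1.19 (0.596 to 2.38) and 0.950 (0.433 to 2.05). Of 7 macrophage markers 4 were in the table, with a summed level of 67.9 and 98.2 CPM in LTα1β2-treated cells and 72.1 and 83.8 CPM in control cells at 24 h and 48 h, mostly Lyz2; Ptprc, Adgre1 and Tyrobp were not among the listed genes. Of 5 osteoclast markers 1 was in the table (Ctsk, which cells of other types express too), and of 8 endothelial and epithelial markers 0 were. For adipocyte markers 1 of 4 and for muscle markers 1 of 3 were in the table, Fabp4 and Des. Fabp4 stood at 2.40 CPM in treated and 1.94 CPM in control cells at 24 h, and 6.69 CPM in treated and 1.45 CPM in control cells at 48 h, and rose over both times (adjusted p = 0.00267, limma) but not without the 48 h treated library (0.659). Des had at most 7.25 CPM. The part of other cell types in the results was not tested, and in bulk RNA a smaller share of a cell type cannot be told apart from less RNA per cell.

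Promoter sequences are shown first because they carry the elements through which these pathways are known to act. Promoter windows, from 250 bases before to 50 bases after the annotated start, were taken from RefSeq (GRCm38.p6) for 33 of the 38 genes. Searched on both strands, the ER stress response element (CCAAT and CCACG with 9 free bases between them) or its second form (ATTGG and CCACG with 1 free base between them) was found in 10 of the 16 chaperone and degradation genes with a window (62.5%), in 0 of the 10 ATF4 targets, and in 51 of all 32851 windows (0.155%). No match of the first form overlapped one of the second. The genes were listed as members of these pathways, so the shares with a motif, here and below, describe the list and were not a test. The matches are set out below, each read along the strand that holds the motif, with the searched letters in capitals and the free positions in lower case.
Hspa5: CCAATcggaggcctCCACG
Hsp90b1 (first): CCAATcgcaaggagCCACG
Hsp90b1 (second): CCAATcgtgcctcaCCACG
Pdia6: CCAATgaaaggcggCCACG
Canx: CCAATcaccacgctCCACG
Calr: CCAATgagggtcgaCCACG
Dnajc3: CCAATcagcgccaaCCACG
Creld2: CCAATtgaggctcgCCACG
Syvn1: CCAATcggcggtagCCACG
Herpud1: ATTGGgCCACG
Dnajb11: ATTGGcCCACG

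The C/EBP-ATF response element TGATGNAA, a short motif that ATF4 is known to bind, was found in 3 of the 10 ATF4 targets with a window (30%), in Atf3 and Herpud1, and in 1304 of the 32851 windows (3.97%). These matches are shown as the element by which ATF4 targets are known to be bound, again with the searched letters in capitals.
Asns: TGATGaAA
Trib3: TGATGtAA
Slc7a11 (first): TGATGcAA
Slc7a11 (second): TGATGcAA
Atf3: TGATGcAA
Herpud1: TGATGcAA

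Whole windows are given for the 3 ER genes and the 3 ATF4 targets that hold a match and had the largest mean fold in either direction, and for Hspa5, added as the textbook target of the unfolded protein response. Each is read along the coding strand, with the letters of the match in capitals. The match begins at position -44 from the start in Syvn1, -98 in Pdia6, -105 in Dnajc3 and -65 in Hspa5, and a match is a description of the letters, not a shown site of binding.
Hspa5 promoter, chr2:34771840-34772139, plus strand: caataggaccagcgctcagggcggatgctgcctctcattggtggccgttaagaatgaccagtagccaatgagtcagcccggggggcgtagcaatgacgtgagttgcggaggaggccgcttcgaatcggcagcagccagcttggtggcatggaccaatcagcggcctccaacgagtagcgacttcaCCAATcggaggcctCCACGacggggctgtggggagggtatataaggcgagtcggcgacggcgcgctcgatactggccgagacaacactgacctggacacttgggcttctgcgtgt
Syvn1 promoter, chr19:6046326-6046625, plus strand: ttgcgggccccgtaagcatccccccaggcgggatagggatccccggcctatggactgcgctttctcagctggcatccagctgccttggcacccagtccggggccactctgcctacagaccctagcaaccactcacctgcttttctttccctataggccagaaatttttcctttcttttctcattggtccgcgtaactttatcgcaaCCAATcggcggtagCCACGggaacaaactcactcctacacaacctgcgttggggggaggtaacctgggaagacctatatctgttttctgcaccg
Pdia6 promoter, chr12:17266339-17266638, plus strand: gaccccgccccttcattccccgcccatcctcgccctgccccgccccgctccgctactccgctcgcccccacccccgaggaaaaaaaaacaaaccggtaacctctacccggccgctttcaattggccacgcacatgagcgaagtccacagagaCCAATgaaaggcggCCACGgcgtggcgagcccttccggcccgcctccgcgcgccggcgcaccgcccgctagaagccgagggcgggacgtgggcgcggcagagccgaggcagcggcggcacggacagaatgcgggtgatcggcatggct
Dnajc3 promoter, chr14:118937682-118937981, plus strand: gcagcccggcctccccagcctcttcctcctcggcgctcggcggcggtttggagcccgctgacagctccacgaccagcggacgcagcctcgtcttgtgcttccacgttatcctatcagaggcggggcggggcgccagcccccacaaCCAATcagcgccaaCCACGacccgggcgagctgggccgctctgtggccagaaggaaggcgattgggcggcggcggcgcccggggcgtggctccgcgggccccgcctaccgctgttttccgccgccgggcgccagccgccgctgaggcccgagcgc
Slc7a11 promoter, chr3:50443564-50443863, minus strand: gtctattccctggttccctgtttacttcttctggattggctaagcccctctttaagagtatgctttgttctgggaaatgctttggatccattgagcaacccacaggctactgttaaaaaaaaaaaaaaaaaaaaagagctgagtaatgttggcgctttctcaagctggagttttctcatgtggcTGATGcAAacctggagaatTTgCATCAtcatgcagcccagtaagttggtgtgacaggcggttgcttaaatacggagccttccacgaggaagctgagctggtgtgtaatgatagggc
Asns promoter, chr6:7693160-7693459, minus strand: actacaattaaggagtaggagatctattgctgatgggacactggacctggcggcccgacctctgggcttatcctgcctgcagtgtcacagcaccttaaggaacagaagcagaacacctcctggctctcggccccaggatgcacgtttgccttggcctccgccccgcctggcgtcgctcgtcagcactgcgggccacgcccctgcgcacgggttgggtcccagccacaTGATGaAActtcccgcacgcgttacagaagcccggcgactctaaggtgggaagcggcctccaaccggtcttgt
Trib3 promoter, chr2:152344011-152344310, minus strand: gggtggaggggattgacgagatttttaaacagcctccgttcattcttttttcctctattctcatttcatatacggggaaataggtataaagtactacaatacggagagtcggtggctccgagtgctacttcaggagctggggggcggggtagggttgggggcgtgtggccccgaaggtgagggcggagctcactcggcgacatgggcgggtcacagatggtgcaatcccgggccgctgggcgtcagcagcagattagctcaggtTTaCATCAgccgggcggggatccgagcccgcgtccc

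Whether LTα1β2 changed these pathways was asked over both times. Of the 38 genes, 0 rose and 0 fell with treatment at an adjusted p of 0.05 (limma, additive model of time and treatment), where 2.92% of the 12160 genes tested rose and 2.27% fell. At an unadjusted p below 0.05 there were 3 of the 38 (Slc7a11, Ern1 and Psat1, each higher), where 16.3% of all genes passed. The model treats 24 h and 48 h as repeats, has 1 residual degree of freedom, and gave each gene the spread typical of its level. Its estimated mean log2 folds lay between -0.27 (Atf6) and 0.44 (Slc7a11). For 31 of the 38 genes the 95% interval of that mean fold lay inside 1.5-fold in both directions, and for the other 7 it did not. The interval uses a spread borrowed from all genes and averages the 2 times. It therefore does not settle whether a gene changed 1.5-fold at 1 time. The spread is how far the treatment fold differed between the 2 times, pooled over genes of like level. The length trend of the 48 h treated library enters it. With that trend removed, the SE was 0.0845 for Psat1 in place of 0.17, and 0.109 for Ern1 in place of 0.174. For Slc7a11 it was 0.185 in place of 0.213. The labels do not tie the libraries to separate cultures, so these intervals and p-values do not measure the spread between cultures.

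At single times there is no replicate, and genes were counted by size. At 24 h 1 of the 38 genes was at least 1.5-fold higher on the log2(CPM + 1) scale (Slc7a11; 1.48% of all genes) and 0 were lower (1.35%). At 48 h 0 were higher (7.39% of all genes) and 0 lower (6.28%). The exact 95% counting interval of the CPM ratio, which covers counting error only, lay above 1 for 14 genes at 24 h (20.3% of all genes) and below 1 for 3 (14.5%). At 48 h it lay above 1 for 11 (21.6%) and below 1 for 18 (34.2%). The interval narrows as a gene's reads increase, so shares of intervals also depend on the level of the genes. It lay above 1 at both times for 6 genes, Asns, Psat1, Phgdh, Ern1, Hspa5 and Pdia6 (9.65% of all genes), and below 1 at both times for 3, Xbp1, Pdia4 and Hyou1 (10.6%). By the sign of the log2 fold alone, 15 genes were above 0 at both times (28.8% of all genes) and 11 below 0 at both (33.2%). The intervals lay on opposite sides of 1 for 3 genes (4.51%). Leaving out the 24 h treated library, so that treated cells are represented by the 48 h library alone and time is not a term, 7 genes rose and 11 fell (limma; 15.5% and 25.2% of all genes). The plot of ratios shows how close most genes lie to no difference at 24 h and how they spread in both directions at 48 h.

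**Figure D1:**
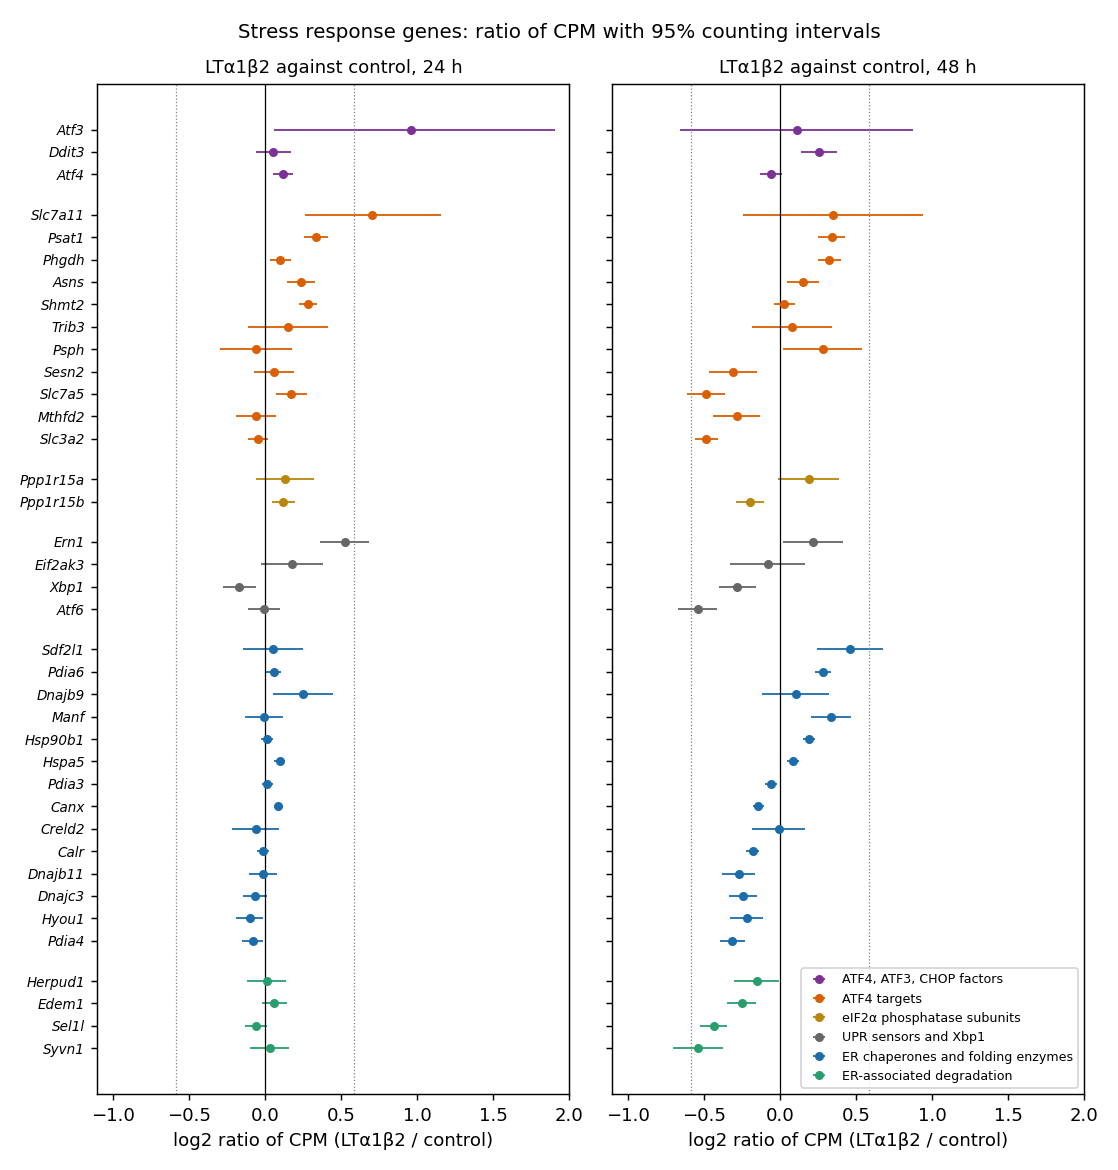
The log2 ratio of CPM, LTα1β2 over control, is plotted for each of the 38 genes at 24 h (left) and 48 h (right), coloured by role, with bars for the exact 95% counting interval of 1 library against 1 and dotted lines at 1.5-fold. Most points at 24 h sit near 0, Ern1 lies at a ratio of 1.44 at 24 h and 1.16 at 48 h, and the degradation genes Syvn1 and Sel1l lie at 0.690 and 0.740 at 48 h.

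Of the 3 stress transcription factors 0 passed the test, and Atf4 was nearly level. Atf4, the effector of the integrated stress response, stood at 252 CPM in treated and 232 CPM in control cells at 24 h, and 253 CPM in treated and 263 CPM in control cells at 48 h. Its ratio of LTα1β2 to control was 1.09 (1.04 to 1.14) at 24 h and 0.962 (0.915 to 1.01) at 48 h, with a mean log2 fold of 0.031 ± 0.17 (SE; adjusted p = 0.963, limma). Ddit3 encodes CHOP, a factor linked to cell death under prolonged ER stress, and stood at 80.3 CPM in treated and 77.3 CPM in control cells at 24 h, and 106 CPM in treated and 88.3 CPM in control cells at 48 h. The 48 h treated library was the highest of the 4, at a ratio of 1.20 (1.10 to 1.30), but its transcript is short at 969 bases, and removing the length trend gave a log2 fold of -0.081 at 48 h in place of 0.25. Some exon bases of Ddit3, 68 in the longest stretch, are shared with the opposite-strand gene Mars. Atf3, an immediate stress factor, was near the lower limit of the table, at 2.07 CPM in treated and 1.06 CPM in control cells at 24 h, and 2.64 CPM in treated and 2.44 CPM in control cells at 48 h. The control at 24 h held the lowest value, and the ratio at 24 h of 1.95 (1.04 to 3.75) rests on few reads. Its ratio at 48 h was 1.08 (0.635 to 1.84), and its log2 fold over both times was 0.33 ± 0.24 (SE; adjusted p = 0.554, limma).

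Among ATF4 targets Asns, Psat1 and Phgdh lay above control beyond counting error at 24 h and at 48 h, as 9.65% of all genes did. Slc7a5 and Slc3a2 were lower at 48 h, where 34.2% of all genes had intervals below 1. Synthesis enzymes and transporters were not divided by this, with Psph at ratios of 0.961 and 1.22 and the transporter Slc7a11 at 1.63 and 1.27. Of the 11 targets 0 passed the limma test. The median of their log2 folds was 0.14 (24 h) and 0.078 (48 h), against 0.022 and -0.089 over all genes tested. At 48 h it was 0.021 with the length trend removed (-0.0094 over all genes) and 0.16 with median-of-ratios rescaling (-0.0065 over all genes). Psat1 encodes phosphoserine aminotransferase, a step of serine synthesis, and stood at 187 CPM in treated and 148 CPM in control cells at 24 h, and 193 CPM in treated and 152 CPM in control cells at 48 h. Both treated libraries lay above both controls, and the ratios of 1.26 (1.19 to 1.33) and 1.27 (1.19 to 1.35) were alike. The mean log2 fold was 0.34 ± 0.17 (SE; adjusted p = 0.299, limma). In the fit without the 48 h treated library, which has no time term, Psat1 rose (log2 fold 0.31, adjusted p = 0.00939, limma; 3.31% of all genes rose and 3.04% fell there). Its log2 fold was 0.36 without the 24 h treated library, and 0.32 and 0.36 without the 24 h and the 48 h control. Fits without 1 library leave a group with 1 library, so they cannot by themselves decide whether Psat1 rose.

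Phgdh, which encodes the first enzyme of serine synthesis, stood at 234 CPM in treated and 218 CPM in control cells at 24 h, and 272 CPM in treated and 217 CPM in control cells at 48 h. Its ratio was 1.07 (1.02 to 1.13) at 24 h and 1.25 (1.19 to 1.32) at 48 h, so that the 48 h treated library was the highest of the 4. Psph, the last enzyme of the same pathway, stood at 18.7 CPM in treated and 19.4 CPM in control cells at 24 h, and 22.5 CPM in treated and 18.6 CPM in control cells at 48 h, with ratios of 0.961 and 1.22. Part of its exon sequence, up to 452 bases in one stretch, overlaps Cct6a on the opposite strand, and the strand setting of the counting is not stated. Asns, asparagine synthetase, stood at 134 CPM in treated and 114 CPM in control cells at 24 h, and 129 CPM in treated and 117 CPM in control cells at 48 h. Treated cells were higher at both times, at ratios of 1.18 (1.11 to 1.26) and 1.11 (1.03 to 1.19), with a mean log2 fold of 0.19 ± 0.17 (SE; adjusted p = 0.654, limma). Its promoter holds the element TGATGaAA shown above.

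The mitochondrial folate enzymes differed in pattern. Shmt2, which converts serine to glycine, stood at 350.3 CPM in treated and 288 CPM in control cells at 24 h, and 284 CPM in treated and 278 CPM in control cells at 48 h. The 24 h treated library was the highest, at a ratio of 1.22 (1.17 to 1.27), and the other 3 were similar, the ratio at 48 h being 1.02 (0.974 to 1.07). Shmt2 rose in the fit without the 48 h treated library (log2 fold 0.31, adjusted p = 0.00963, limma), but not over both times (log2 fold 0.16 ± 0.17 SE, adjusted p = 0.754, limma) or without the 24 h treated library (adjusted p = 0.957). Mthfd2, the next folate enzyme, stood at 58.5 CPM in treated and 60.9 CPM in control cells at 24 h, and 52.0 CPM in treated and 63.2 CPM in control cells at 48 h, with ratios of 0.960 and 0.822 (0.738 to 0.914), so that the 48 h treated library was the lowest. With 1 library per group, no gene's folds at the 2 times were tested against each other.

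Slc7a5 and Slc3a2 encode the light and heavy chains of a leucine transporter and were both lower in treated cells at 48 h. Slc7a5 stood at 109 CPM in treated and 96.8 CPM in control cells at 24 h, and 77.0 CPM in treated and 108 CPM in control cells at 48 h. Its ratio was 1.13 (1.05 to 1.21) at 24 h and 0.714 (0.656 to 0.778) at 48 h. Slc3a2 stood at 241 CPM in treated and 248 CPM in control cells at 24 h, and 192 CPM in treated and 268 CPM in control cells at 48 h, with ratios of 0.971 (0.928 to 1.02) and 0.716 (0.678 to 0.756). For both genes the 48 h treated library was the lowest of the 4, and with the length trend removed the log2 folds at 48 h were -0.39 and -0.45. Slc7a11, the cystine transporter that supplies glutathione synthesis, was low in every library, at 7.34 CPM in treated and 4.50 CPM in control cells at 24 h, and 4.67 CPM in treated and 3.66 CPM in control cells at 48 h. The 24 h ratio was 1.63 (1.20 to 2.23) and the 48 h ratio 1.27 (0.845 to 1.92). At 24 h Slc7a11 was the only 1 of 38 past the 1.5-fold rule on the log2(CPM + 1) scale, on which Atf3, with a larger CPM ratio, stayed under it. Over both times its log2 fold was 0.44 ± 0.21 (SE; adjusted p = 0.268, limma). Per kilobase of transcript it had 0.488 CPM in control cells at 24 h, the lowest level of the 38 genes in that library.

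Of the regulators among the targets, Trib3 was close to control and Sesn2 was lower in treated cells at 48 h. Trib3 encodes a pseudokinase that damps ATF4 activity and stood at 16.6 CPM in treated and 14.9 CPM in control cells at 24 h, and 20.6 CPM in treated and 19.5 CPM in control cells at 48 h, with ratios of 1.11 (0.927 to 1.33) and 1.06 (0.882 to 1.27). Sesn2, a sestrin that restrains mTORC1, stood at 65.1 CPM in treated and 62.4 CPM in control cells at 24 h, and 49.1 CPM in treated and 60.9 CPM in control cells at 48 h, with ratios of 1.04 and 0.807 (0.723 to 0.901). Trib3 was higher in both libraries of 48 h than in both of 24 h, whereas Sesn2 was lowest in the 48 h treated library. Of the 2 subunits that direct dephosphorylation of eIF2α, the inducible Ppp1r15a stood at 30.9 CPM in treated and 28.1 CPM in control cells at 24 h, and 36.1 CPM in treated and 31.6 CPM in control cells at 48 h, with ratios of 1.10 (0.962 to 1.25) and 1.14 (0.994 to 1.31). The constitutive Ppp1r15b stood at 186 CPM in treated and 171 CPM in control cells at 24 h, and 149 CPM in treated and 170.1 CPM in control cells at 48 h, at ratios of 1.09 (1.03 to 1.15) and 0.874 (0.820 to 0.932). Neither passed the test (adjusted p = 0.754 and 0.957, limma). Part of the exon sequence of Ppp1r15b, up to 640 bases in one stretch, overlaps Gm26616 on the opposite strand.

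**Figure D2:**
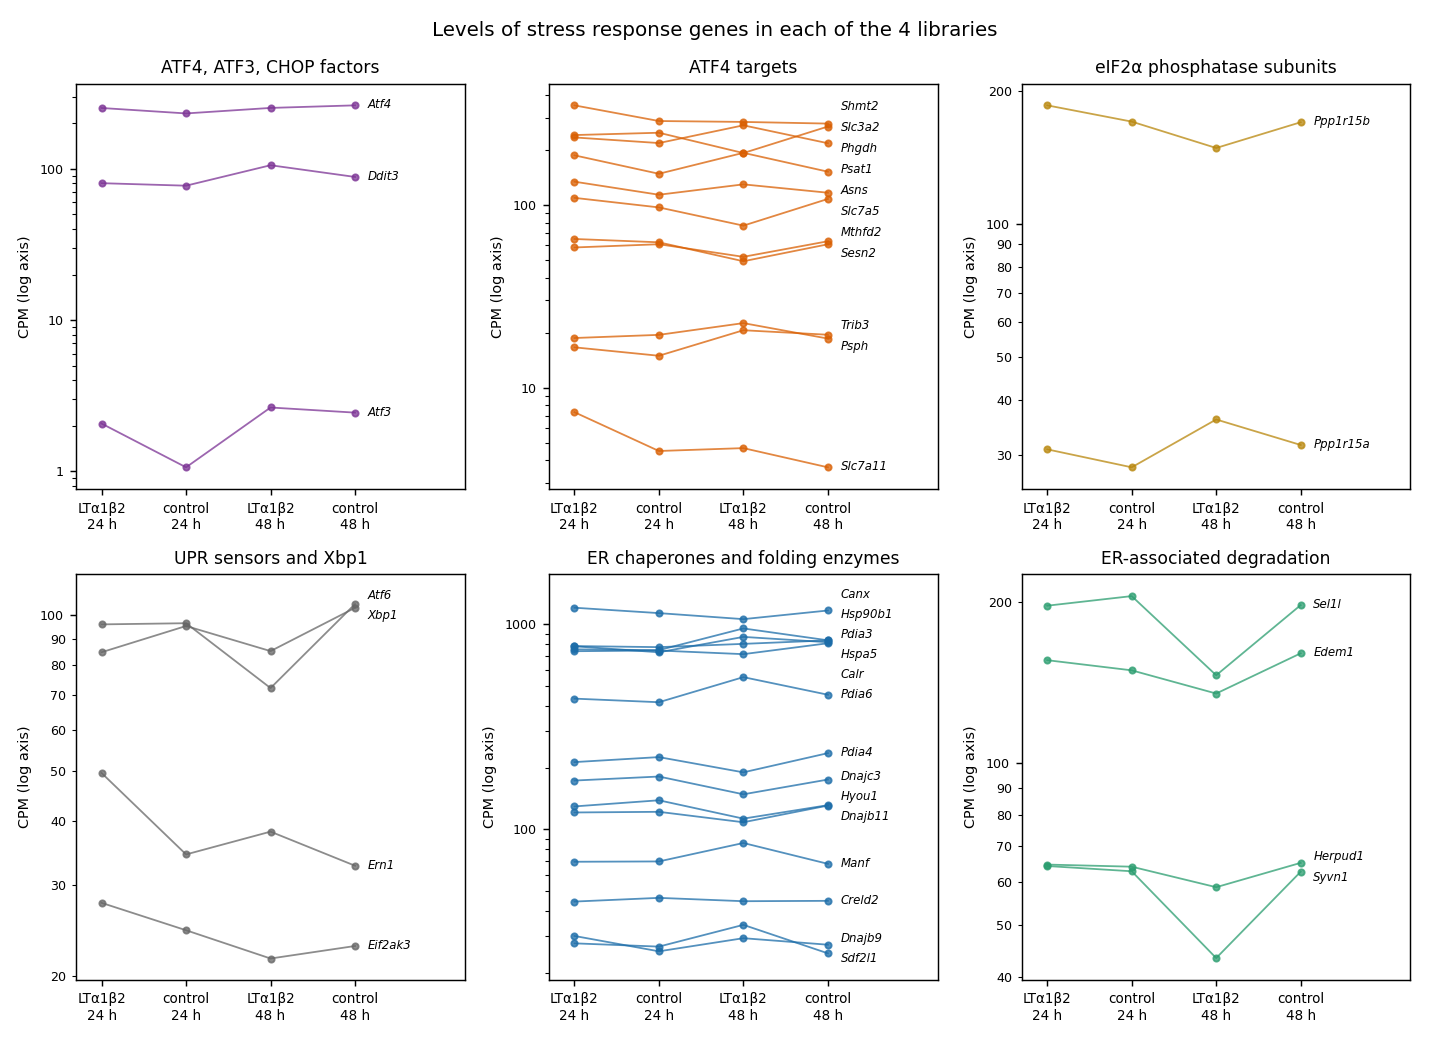
CPM of each gene is plotted on a log axis in the 4 libraries, 1 panel per role, and lines join the values of 1 gene as a guide to the eye. Most lines are nearly level; Ern1 is highest in LTα1β2-treated cells at 24 h (49.5 CPM), and Syvn1, Sel1l and Atf6 are lowest in LTα1β2-treated cells at 48 h.

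Of the 4 genes of the sensors and Xbp1, 0 passed the test. Beyond counting error Ern1 was higher in treated cells at both times and Xbp1, whose mRNA it splices, lower; the difference between the genes was not tested. Ern1 encodes IRE1α, the kinase and nuclease that splices Xbp1 mRNA (chromosome 11, 106394650 to 106487852, minus strand, GRCm38). It stood at 49.5 CPM in treated and 34.4 CPM in control cells at 24 h, and 38.1 CPM in treated and 32.8 CPM in control cells at 48 h. Both treated libraries lay above both controls, at ratios of 1.44 (1.29 to 1.61) at 24 h and 1.16 (1.02 to 1.33) at 48 h. Over both times the log2 fold was 0.36 ± 0.17 (SE; adjusted p = 0.26, limma). Its transcript is long, 6946 bases, and with the length trend removed the 24 h and 48 h log2 folds were 0.50 and 0.50, and Ern1 rose (adjusted p = 0.044, limma; 1.53% of all genes rose and 1.7% fell there). Its log2 fold was 0.55 without the 48 h treated library and 0.18 without the 24 h treated library. It was 0.40 and 0.33 without the 24 h and the 48 h control. Each of these fits leaves a group with 1 library, so they cannot by themselves decide whether Ern1 rose.

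Xbp1, whose spliced mRNA encodes a factor for chaperone genes, stood at 84.8 CPM in treated and 95.3 CPM in control cells at 24 h, and 85.2 CPM in treated and 103 CPM in control cells at 48 h. Both treated libraries lay below both controls, at ratios of 0.890 (0.825 to 0.959) and 0.825 (0.758 to 0.896), and the mean log2 fold was -0.22 ± 0.17 (SE; adjusted p = 0.585, limma). Spliced and unspliced forms cannot be told apart in gene totals. Atf6, the membrane-bound factor released by cleavage, stood at 96.0 CPM in treated and 96.5 CPM in control cells at 24 h, and 72.3 CPM in treated and 105 CPM in control cells at 48 h, with ratios of 0.995 (0.925 to 1.07) and 0.688 (0.630 to 0.750). The 48 h treated library was the lowest of the 4. The transcript is 7246 bases long, and removing the length trend gave a 48 h log2 fold of -0.24 in place of -0.53. Eif2ak3, which encodes PERK, stood at 27.8 CPM in treated and 24.6 CPM in control cells at 24 h, and 21.7 CPM in treated and 22.9 CPM in control cells at 48 h, with ratios of 1.13 (0.982 to 1.30) and 0.946 (0.796 to 1.12), both of whose intervals include 1.

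ER chaperones as a group were level. Their summed CPM was 5499 in LTα1β2-treated cells and 5376 in control cells at 24 h, a ratio of 1.02. At 48 h it was 5699 in treated cells and 5748 in control cells, a ratio of 0.992. The same sums over the 11 ATF4 targets were 1421 in treated and 1274 in control cells at 24 h (ratio 1.12), and 1297 in treated and 1306 in control cells at 48 h (ratio 0.993). The chaperone sum was 3.87 times the ATF4 target sum in treated cells and 4.22 times in control cells at 24 h, and 4.396 and 4.402 times in treated and control cells at 48 h. The 2 sums thus stood in a different proportion in treated and control cells at 24 h and in nearly the same one at 48 h. With 1 library per group neither sum has a replicate check. In CPM, the targets that differed most at 24 h were Shmt2 (350 in treated and 288 in control cells) and Psat1 (187 and 148). Of the 11 targets 3 had log2 folds below 0 at 24 h. The log2 folds of the 14 chaperone genes had a median of 0.004 at 24 h, with 7 above and 7 below 0, and -0.031 at 48 h, with 6 above and 8 below. Median-of-ratios rescaling turned the 48 h median to 0.056, so its direction depends on the scaling.

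**Figure D3:**
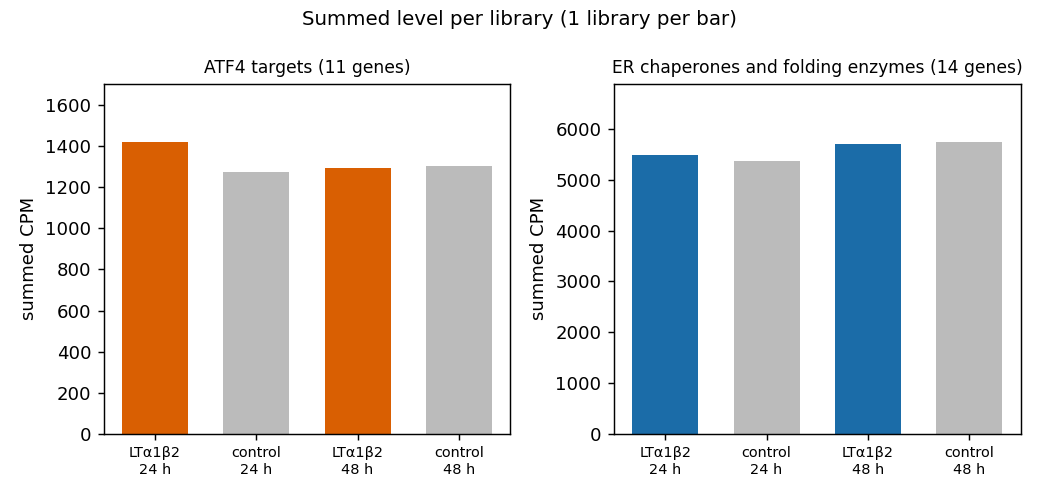
Bars give the summed CPM of the 11 ATF4 targets (left) and of the 14 ER chaperones and folding enzymes (right) in each library, coloured for LTα1β2 and grey for control, with axes from 0. The ATF4 target sum is highest in LTα1β2-treated cells at 24 h (1421 CPM), while the chaperone sum lies between 5376 and 5748 CPM in all 4 libraries.

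The abundant chaperones carry most of that sum. Per kilobase of transcript the highest levels of the 38 genes in control cells at 24 h were those of Calr (341 CPM per kilobase), Pdia3 (279), Canx (265), Hsp90b1 (232) and Hspa5 (199). Hspa5 encodes BiP, the chaperone that holds the sensors inactive, and stood at 780.3 CPM in treated and 729.6 CPM in control cells at 24 h, and 867 CPM in treated and 817 CPM in control cells at 48 h. Treated cells were slightly higher at both times, at ratios of 1.07 (1.04 to 1.10) and 1.06 (1.03 to 1.09), a difference beyond counting error but not past the test (log2 fold 0.092 ± 0.19 SE, adjusted p = 0.879, limma). Hsp90b1, the HSP90 of the ER, stood at 754 CPM in treated and 747 CPM in control cells at 24 h, and 954 CPM in treated and 835 CPM in control cells at 48 h, with ratios of 1.01 (0.983 to 1.04) and 1.14 (1.11 to 1.17). Calr and Canx encode the lectin chaperones calreticulin and calnexin. Their ratios were 0.992 (0.967 to 1.02) and 1.06 (1.04 to 1.08) at 24 h and 0.885 (0.859 to 0.911) and 0.907 (0.886 to 0.929) at 48 h. Canx stood at 1203 CPM in treated and 1133 CPM in control cells at 24 h, and 1058 CPM in treated and 1166 CPM in control cells at 48 h, and Calr at 738 CPM in treated and 744 CPM in control cells at 24 h, and 714 CPM in treated and 807 CPM in control cells at 48 h.

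The disulfide isomerases, which form and shuffle disulfide bonds, differed from one another at 48 h. Pdia6 stood at 434 CPM in treated and 416 CPM in control cells at 24 h, and 552 CPM in treated and 453 CPM in control cells at 48 h, at ratios of 1.04 (1.01 to 1.08) and 1.22 (1.18 to 1.26). Pdia4 stood at 213 CPM in treated and 225 CPM in control cells at 24 h, and 189 CPM in treated and 235 CPM in control cells at 48 h, at ratios of 0.945 (0.901 to 0.992) and 0.806 (0.762 to 0.852). Pdia6 was thus higher and Pdia4 lower in treated cells, and their transcripts are of like length, 2175 and 2399 bases. With the length trend removed their 48 h log2 folds were 0.25 and -0.32. Pdia3, the partner of calnexin and calreticulin, stood at 782 CPM in treated and 773 CPM in control cells at 24 h, and 802 CPM in treated and 834 CPM in control cells at 48 h, at ratios of 1.01 and 0.962. Over both times 0 of the 3 passed the test (adjusted p = 0.731 for Pdia6, 0.655 for Pdia4 and 0.978 for Pdia3, limma).

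Other lumenal factors included the largest single ratio among chaperones. Sdf2l1, a subunit of an ER chaperone complex, stood at 27.8 CPM in treated and 26.8 CPM in control cells at 24 h, and 34.2 CPM in treated and 24.8 CPM in control cells at 48 h, and its ratio at 48 h was 1.38 (1.19 to 1.60), against 1.04 (0.904 to 1.19) at 24 h. The transcript is 1108 bases long, and removing the length trend gave a 48 h log2 fold of 0.16 in place of 0.45. Manf, a secreted factor induced by ER stress, stood at 69.4 CPM in treated and 69.6 CPM in control cells at 24 h, and 85.7 CPM in treated and 67.8 CPM in control cells at 48 h, with a 48 h ratio of 1.26 (1.15 to 1.39) and a 48 h log2 fold of 0.31 with the trend removed. Creld2, another secreted ER stress product, was level at 44.4 CPM in treated and 46.3 CPM in control cells at 24 h, and 44.6 CPM in treated and 44.7 CPM in control cells at 48 h. Hyou1, an HSP70-type chaperone and exchange factor, stood at 129 CPM in treated and 138 CPM in control cells at 24 h, and 113 CPM in treated and 131 CPM in control cells at 48 h, at ratios of 0.933 (0.878 to 0.992) and 0.860 (0.799 to 0.925).

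The J-domain co-chaperones, which stimulate BiP, showed no common direction. Dnajb9 stood at 30.2 CPM in treated and 25.4 CPM in control cells at 24 h, and 29.4 CPM in treated and 27.3 CPM in control cells at 48 h, with ratios of 1.19 (1.04 to 1.36) and 1.08 (0.924 to 1.25). Dnajb11 stood at 121 CPM in treated and 122 CPM in control cells at 24 h, and 108 CPM in treated and 130.4 CPM in control cells at 48 h, with ratios of 0.993 (0.931 to 1.06) and 0.829 (0.770 to 0.893). Dnajc3, which also inhibits PERK, stood at 173 CPM in treated and 181 CPM in control cells at 24 h, and 148 CPM in treated and 175 CPM in control cells at 48 h, with ratios of 0.956 (0.906 to 1.01) and 0.847 (0.795 to 0.903). The last of these is long (5141 bases), and removing the length trend gave -0.038 at 48 h in place of -0.24. Among the 16 ER genes with a promoter window, those with the ER stress response element (10 genes) had log2 folds with a median of 0.013 (24 h) and -0.14 (48 h), and those without it (6 genes) 0.034 and -0.15. With the length trend removed the 48 h medians were -0.12 with the element and -0.014 without it, a difference that was not tested.

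Genes of ER-associated degradation, which returns misfolded proteins to the cytosol for destruction, were level at 24 h. In the deposited values they were lower in treated cells at 48 h. Their median log2 fold there was -0.34, against -0.089 over all genes tested. With the length trend removed it was -0.19, against -0.0094 over all genes tested. Their summed CPM was 481 in treated and 481 in control cells at 24 h, and 383 in treated and 486 in control cells at 48 h. Syvn1 encodes the ubiquitin ligase HRD1, and stood at 64.3 CPM in treated and 62.9 CPM in control cells at 24 h, and 43.3 CPM in treated and 62.8 CPM in control cells at 48 h. Its ratio was 1.02 (0.935 to 1.12) at 24 h and 0.690 (0.616 to 0.773) at 48 h. Sel1l, the adaptor of that ligase, stood at 197 CPM in treated and 205 CPM in control cells at 24 h, and 146 CPM in treated and 197 CPM in control cells at 48 h, at ratios of 0.960 (0.913 to 1.01) and 0.740 (0.695 to 0.787). In both the 48 h treated library was the lowest and the other 3 lay close together, and neither passed over both times (for Syvn1 log2 fold -0.25 ± 0.17 SE, adjusted p = 0.525, limma, and for Sel1l log2 fold -0.25 ± 0.17 SE, adjusted p = 0.525, limma).

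Edem1, which sorts misfolded glycoproteins for removal, stood at 156 CPM in treated and 149 CPM in control cells at 24 h, and 135 CPM in treated and 160.3 CPM in control cells at 48 h, with ratios of 1.04 and 0.841 (0.787 to 0.899). Herpud1, a membrane component of the complex, stood at 64.7 CPM in treated and 64.1 CPM in control cells at 24 h, and 58.7 CPM in treated and 65.2 CPM in control cells at 48 h, with ratios of 1.01 and 0.901 (0.813 to 0.998). With the length trend removed the 48 h log2 folds of the 4 genes were -0.39 (Syvn1), -0.17 (Sel1l), 0.0023 (Edem1) and -0.22 (Herpud1), with a median of -0.19 where it had been -0.34. Across the 38 genes the 48 h log2 fold correlated with transcript length at Spearman's rho = -0.36, against 0.04 at 24 h and 0.073 at 48 h with the trend removed. This correlation is across genes that share the same libraries and is a description only.

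**Figure D4:**
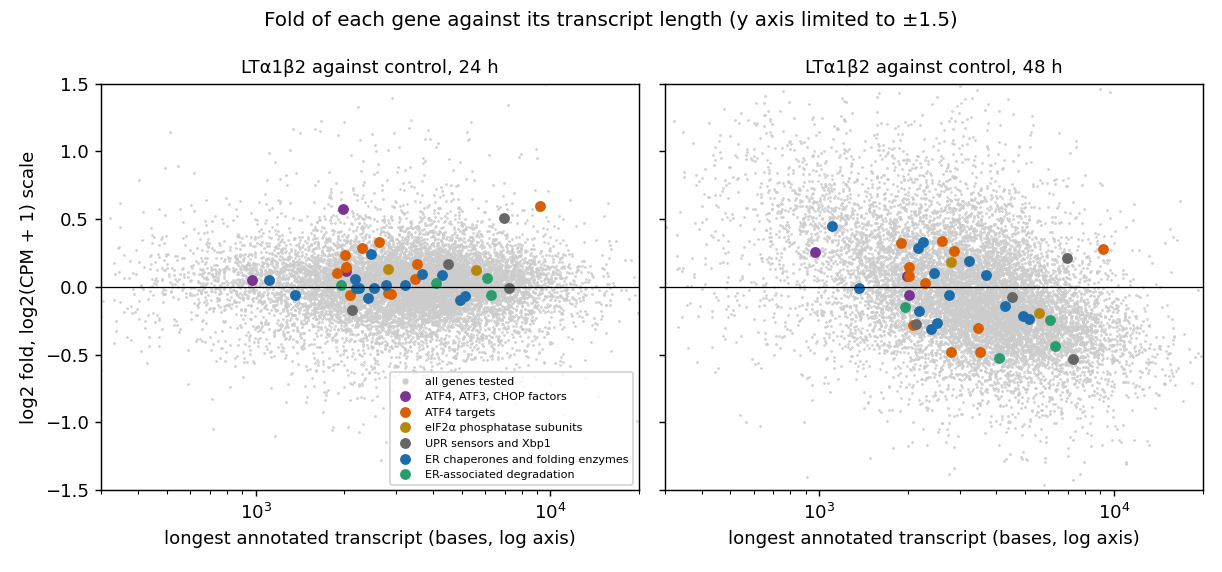
Each gene's log2 fold on the log2(CPM + 1) scale is plotted against the length of its longest annotated transcript (log axis) at 24 h (left) and 48 h (right), grey for all genes tested and coloured for the 38 stress response genes. At 48 h the grey cloud slopes downwards (Spearman's rho = -0.44) and most coloured points lie within it, whereas at 24 h there is almost no slope (-0.023).

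Whether the genes differed with time was asked from 48 h against 24 h. Over both treatments 0 of the 38 rose and 0 fell (limma, the time term of the same model), where 0.485% of all genes rose and 0.493% fell. Only Atf3 passed an unadjusted p below 0.05, where 13.6% of all genes did. In control cells 1 of the 38 was at least 1.5-fold higher at 48 h, Atf3 (0.403% of all genes), and 0 were lower (0.995%). Its ratio of 48 h to 24 h was 2.30 (1.24 to 4.41). The counting interval lay above 1 for 16 of the 38 (10.8% of all genes) and below 1 for 0 (15.3%). It narrows as a gene's reads increase, so these shares also depend on the level of the genes. The 16 included Atf4 (ratio and interval 1.13, 1.08 to 1.18), Ddit3 (1.14, 1.05 to 1.24), Trib3 (1.30, 1.09 to 1.56), Hspa5 (1.12, 1.09 to 1.15), Hsp90b1 (1.12, 1.09 to 1.15) and Calr (1.09, 1.06 to 1.11). The chaperone sum in control cells was 1.07 times as high at 48 h as at 24 h, and the ATF4 target sum 1.03 times.

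In LTα1β2-treated cells 0 of the 38 were 1.5-fold higher at 48 h than at 24 h (5.58% of all genes) and 0 lower (6.95%). There the counting interval lay above 1 for 10 (18.6%) and below 1 for 19 (40.1%). Ddit3 was at a ratio of 1.31 (1.21 to 1.42), Trib3 at 1.24 (1.03 to 1.49), Hspa5 at 1.11 (1.08 to 1.14) and Hsp90b1 at 1.26 (1.23 to 1.30), each above 1 as in control cells. Atf4 was level in treated cells, at 1.00 (0.953 to 1.05). The lowest ratios were those of Slc7a11 (0.636, 0.449 to 0.890), Syvn1 (0.674, 0.603 to 0.752) and Slc7a5 (0.705, 0.648 to 0.765). With the length trend removed the log2 folds over time in treated cells were -0.14 for Slc7a11 in place of -0.56, -0.38 for Syvn1 and -0.36 for Slc7a5, so that Slc7a11 was no longer among the lowest. The same step gave 0.066 for Ddit3 in place of 0.39, 0.27 for Trib3, 0.31 for Hspa5 and 0.46 for Hsp90b1. These comparisons share libraries with those of treatment, and the 48 h treated library enters every ratio over time in treated cells.

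Further genes of the same pathways were read from the same fit. Of 23 measured further ATF4 targets 0 passed the limma test, and their median log2 folds were 0.060 (24 h) and -0.16 (48 h). The highest were Eif4ebp1, a translation repressor, at ratios of 1.40 (1.27 to 1.53) and 1.35 (1.22 to 1.49) (adjusted p = 0.108, limma), and Cebpb, a C/EBP factor, at 1.23 (1.12 to 1.36) and 1.38 (1.23 to 1.54) (adjusted p = 0.223, limma). The log2 fold of Eif4ebp1 was 0.41 without the 48 h treated library, and 0.39 and 0.51 without the 24 h and the 48 h control. Each of these fits leaves a group with 1 library, so they cannot by themselves decide whether it rose. Of 20 cytosolic tRNA synthetase genes 0 passed; 17 were above 0 at 24 h and 13 at 48 h, where 54.9% and 40.7% of all genes were. The median log2 folds of the 20 were 0.093 and 0.030. Of 11 genes of eIF2, its kinases and eIF2B 0 passed, and Eif2s2, a subunit of eIF2, was at ratios of 1.13 (1.08 to 1.20) at 24 h and 1.59 (1.51 to 1.68) at 48 h. Of 9 mitochondrial chaperone and protease genes 9 were above 0 at 24 h and 8 at 48 h, where 54.9% and 40.7% of all genes were. Of the 9, 1 rose, where 2.92% of all genes did. This was Hspe1, which encodes the mitochondrial co-chaperonin (log2 fold 0.62 ± 0.17 SE, adjusted p = 0.00844, limma). It was at ratios of 1.19 (1.12 to 1.26) and 2.01 (1.89 to 2.14); its transcript is short (964 bases), and it did not pass without the 48 h treated library (adjusted p = 0.138, limma) or with the length trend removed (0.0747).

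On the ER side, of 21 further folding genes 0 passed, 11 (52.4%, against 33.2% of all genes) were below 0 at both times, and Fkbp10, a collagen chaperone of the FK506-binding family, was at ratios of 0.818 (0.788 to 0.850) and 0.653 (0.623 to 0.685) (adjusted p = 0.12, limma). It fell in the fit with the length trend removed (adjusted p = 0.0469, limma). Fits without 1 library leave a group with 1 library, so they cannot decide whether Fkbp10 fell. Of 13 other ER stress factors and effectors 1 fell, where 2.27% of all genes did. This was Creb3l1, which encodes a membrane-bound factor of the ATF6 type that promotes collagen expression in osteoblasts. Creb3l1 stood at 67.8 CPM in treated and 95.7 CPM in control cells at 24 h, and 56.4 CPM in treated and 86.3 CPM in control cells at 48 h, and both treated libraries lay below both controls. Its ratios were 0.708 (0.654 to 0.767) and 0.654 (0.593 to 0.721), and the mean log2 fold was -0.55 ± 0.17 (SE; adjusted p = 0.03, limma). It also fell with the length trend removed (adjusted p = 0.0171, limma). It did not pass with prior degrees of freedom fixed at 10 (adjusted p = 0.21, limma) or with median-of-ratios rescaling (0.0803). Fits without 1 library leave a group with 1 library, so they cannot decide whether Creb3l1 fell. Of 20 translocation and glycosylation genes 1 rose, Sec61g, a translocon subunit, where 2.92% of all genes rose. Its ratio, however, was 1.03 (0.953 to 1.11) at 24 h and 2.72 (2.53 to 2.93) at 48 h. The call (log2 fold 0.74 ± 0.17 SE, adjusted p = 0.000919, limma) thus rests on the 48 h treated library. Of 15 further degradation genes and 10 cytosolic heat shock genes 0 passed, with medians of -0.044 and 0.054 at 24 h and -0.11 and 0.062 at 48 h.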

How the data were processed

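Per the labels' protocols, strand-preserving libraries were sequenced as pairs on a NovaSeq. The submitters' processing notes name edgeR 3.30.0; for aligner, counter, build and annotation there is no entry (not given in the sources used here). The authors deposited CPM for 12208 genes, each column summing to 1000000 over the listed genes; no listed gene is at 0, and silent genes are not analysed here. 100% of values were whole multiples of 1 read within 0.01 read, the lowest being 9 to 12 reads, and the recovered reads gave exact 95% conditional binomial (Clopper-Pearson) intervals. Symbols and the longest transcript per gene came from GENCODE M21 (GRCm38; 12205 identifiers matched ignoring versions), which may not be the authors' build.

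The 12160 genes whose mean CPM reached 1, all 38 members among them, were fitted on log2(CPM + 1) in limma 3.58.1 (R 4.3.3; time and treatment, trended empirical Bayes, two-sided, Benjamini-Hochberg 0.05 over all genes). Estimated prior degrees of freedom were infinite. With 1 library per group, single times have ratios and a 1.5-fold rule but no test. The fit was tested on simulated reads of the 12160 genes (assumed dispersion 0.005). Of 50 altered genes per size it called 8 at 1.25-fold, 40 at 1.5-fold and 48 at 2-fold, and it made 14 false calls. The simulated reads had no length trend and the same fold at both times. Prior degrees of freedom there were 126.9, so these counts do not give the power or false calls of the real fit. The length trend was each library's lowess curve of log2 deviation on log2 length. The members and lists were chosen with earlier results of these data known. All members could be named, with up to 4 genes of each further list by absolute mean log2 fold. A planned count test on the recovered reads and a TMM rescaling were not run. Exons of 13 of the 38 members overlap another gene's, by at least 200 bases in 4, and reads there may be shared. The longest stretches in these 4 are 640 bases (Ppp1r15b), 452 (Psph), 270 (Hsp90b1) and 221 (Eif2ak3).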

Additional observations from a re-analysis of the deposited data

Results flagged for a closer look

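For 3 of the 38 genes the counting interval of the ratio of LTα1β2 to control lay above 1 at 24 h and below 1 at 48 h, as for 4.51% of all genes with opposite intervals in either order. These are Slc7a5 (1.13 at 24 h and 0.714 at 48 h), Ppp1r15b (1.09 and 0.874) and Canx (1.06 and 0.907). With 1 library per group the difference between the times was not tested. With the length trend removed their 48 h log2 folds were -0.39, 0.033 and 0.0032, so that only Slc7a5 of these kept a fold below 0.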

How the results depend on the processing

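Of the 38 genes, 0 rose or fell with treatment over both times in the fit as reported, with pseudocounts of 0.25 and 5, with no filter on low values, with a mean CPM of at least 5 (37 genes tested), with median-of-ratios rescaling, with no time term, with no variance trend and with prior degrees of freedom fixed at 10. With the length trend removed 1 rose (Ern1), and 2 with that and prior degrees of freedom fixed at 10 (Ern1 and Psat1), a setting chosen after seeing the data. Leaving out 1 library at a time, which drops the time term and takes a lone library to vary like the rest, gave 0 to 7 higher and 0 to 11 lower. The 3 higher without the 48 h treated library were Ern1, Psat1 and Shmt2, and the 7 and 11 came without the 24 h treated library, where 15.5% of all genes rose and 25.2% fell. For time, 0 passed as reported, with median-of-ratios rescaling, with the length trend removed and with prior degrees of freedom fixed at 10. The 38 genes were not counted for time under the other settings. At 24 h 2 genes were 1.5-fold higher with a pseudocount of 0.25, 0 with a pseudocount of 5 and 0 at 2-fold. In control 0 reached 2-fold over time on the log2(CPM + 1) scale, and at 48 h 1 was 1.5-fold higher in treated cells with the length trend removed (Slc7a11). Median-of-ratios rescaling moved the chaperones' 48 h median log2 fold to 0.056, with -0.031 as deposited; the median of all genes was -0.089 and -0.0065 on those scales. Over all genes 355 rose and 276 fell with treatment as reported, against 95 and 83 with median-of-ratios rescaling, 186 and 207 with the length trend removed, 20 and 11 with no time term, and 39 and 25 with prior degrees of freedom fixed at 10. Without the treated libraries at 24 h or 48 h the counts were 1886 and 3063 or 402 and 370, and without the controls at 24 h or 48 h 23 and 8 or 16 and 6. For time, 59 rose and 60 fell, against 0 and 0 with median-of-ratios rescaling or 10 prior degrees of freedom and 0 and 1 with the length trend removed. The count test on recovered reads and TMM rescaling were not run. No paired analysis was possible because the labels give no replicate numbers; time is the only block. Depth limits Atf3 and Slc7a11 most.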
